A study of Mus musculus with 6 samples.

Results

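This account follows 5 red blood cell genes, Alas2, Hba-a1, Hba-a2, Hbb-bs and Hbb-bt, among the 24946 named genes measured in the lateral septum of Nts-Cre mice. They were chosen as genes that mark red blood cells, and Alas2 was selected on its values in these libraries, being far lower in IP than in Input, so the comparison of IP with Input below is a description of the 5 genes, with no p-value on them. Of the 5, 4 passed the filter on low values and Hbb-bs was listed at 0 in all 6 libraries.

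Red blood cells carry oxygen on haemoglobin, which joins alpha globin and beta globin chains around haem. Adult mice make alpha globin from a pair of neighbouring genes, Hba-a1 and Hba-a2, and C57BL/6 mice make beta globin from Hbb-bs and Hbb-bt. Alas2 encodes the form of 5-aminolevulinate synthase that red cell precursors use for the opening step of haem synthesis, and other cells use the related gene Alas1. Mature red blood cells have no nucleus and no ribosomes, while the youngest cells in the blood, the reticulocytes, still hold ribosomes and messenger RNA for globin and Alas2.

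The study used viral-TRAP, in which an AAV that needs Cre recombinase makes a GFP-tagged ribosomal protein L10a. The IP libraries hold RNA that came down with anti-EGFP antibodies, and the Input libraries hold RNA kept from the same tissue before that step. All mice in both groups were Nts-Cre mice of the C57Bl6J strain injected in the lateral septum with AAV5-Introvert-NBL10, and the methods give males and females 8 to 20 weeks old. The paper's methods name the virus AAV5-Introvert-GFPL10a instead. Tissue was taken 3 or 4 weeks after injection from 3 pools of 4 to 6 mice, so that each pool gave 1 IP library and 1 Input library. The tag is limited to injected cells in which the Nts promoter drives Cre, a group without Cre was not analysed here, and the protocol names no step that washes blood from the tissue.

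Values are read counts that the authors divided by DESeq2's factors. They added up to between 22781827 and 24958423 in the IP libraries and between 16828024 and 17129150 in the Input libraries, which stood for about 9890000 to 11000000 reads per IP library and 9320000 to 9810000 per Input library. All 10 genes of a list for the lateral septum and its tagged cells were higher in IP, with Nts, the neuropeptide gene whose promoter drives Cre, at a log2 fold change of 4.12 (limma, adjusted p under 0.05). Over all genes tested, 31.4% were higher. The list holds Nts, Sst, Cartpt, Mc3r and Glp1r, which the paper reported as enriched in IP. The count is therefore no test of the IP.

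Sequences upstream of the genes are shown because 4 motifs known from red cell promoters occur in them. These are the GATA box (GATAA, bound by GATA1 in red cell precursors), the CACCC box (CACCC, bound by KLF1), the CCAAT box (CCAAT) and the TATA box (TATAA), all searched on both strands. The lines give the 250 bases before each RefSeq start in GRCm38.p6, 5′ to 3′ on the gene's strand, with every motif match in capitals. Alas2 lies on chrX:150547167-150547416 (plus strand), Hba-a1 on chr11:32283422-32283671 (plus strand), Hbb-bs on chr7:103827929-103828178 (minus strand) and Hbb-bt on chr7:103813924-103814173 (minus strand).
Alas2: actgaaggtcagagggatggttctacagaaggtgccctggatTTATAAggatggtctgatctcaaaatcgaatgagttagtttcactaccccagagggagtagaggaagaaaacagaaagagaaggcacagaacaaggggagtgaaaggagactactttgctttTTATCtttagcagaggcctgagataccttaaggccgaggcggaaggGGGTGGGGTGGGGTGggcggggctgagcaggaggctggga
Hba-a1: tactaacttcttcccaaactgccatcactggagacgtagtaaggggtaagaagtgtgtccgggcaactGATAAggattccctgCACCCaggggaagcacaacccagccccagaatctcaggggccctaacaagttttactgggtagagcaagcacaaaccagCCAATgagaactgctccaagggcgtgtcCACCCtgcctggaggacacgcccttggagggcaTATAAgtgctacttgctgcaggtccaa
Hbb-bs: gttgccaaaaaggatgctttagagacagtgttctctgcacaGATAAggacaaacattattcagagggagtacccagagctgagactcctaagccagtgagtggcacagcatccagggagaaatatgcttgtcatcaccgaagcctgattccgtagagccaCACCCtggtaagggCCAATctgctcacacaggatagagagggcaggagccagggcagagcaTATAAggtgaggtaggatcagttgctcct
Hbb-bt: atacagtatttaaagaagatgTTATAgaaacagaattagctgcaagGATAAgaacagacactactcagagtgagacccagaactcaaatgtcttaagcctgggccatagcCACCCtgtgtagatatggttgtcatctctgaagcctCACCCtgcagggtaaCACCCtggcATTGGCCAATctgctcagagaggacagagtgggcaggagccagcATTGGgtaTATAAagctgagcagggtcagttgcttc

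The Hba-a2 window (chr11:32296242-32296491, plus strand) matched that of Hba-a1 at 247 of 247 overlapping bases when shifted by 3 bases. Each of the 4 globin windows held all 4 motifs, with a TATA box whose leftmost base lay 27 to 30 bases before the start. Alas2 held 1 GATA box and 3 CACCC boxes on the opposite strand, and its pair of overlapping TATAA matches lay 207 and 208 bases before the start. The CCAAT letters were not in its window. For each gene, the span in the GENCODE M21 annotation begins inside the window, so matches near the RefSeq start can lie within that span. The CACCC boxes of Alas2 do, and so do the TATA boxes nearest the start of Hba-a1, Hbb-bs and Hbb-bt. The CCAAT box and the CACCC box nearest the start of Hba-a1 and Hbb-bs do as well, as does the CCAAT box of Hbb-bt nearest the start. Among 32817 promoter windows of the same length, 22.6% held a GATA box, 52.0% a CACCC box, 33.8% a CCAAT box, 22.8% a TATA box and 1.0% all 4. A match is a description of letters and was not tested as a binding site.

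**Figure D1:**
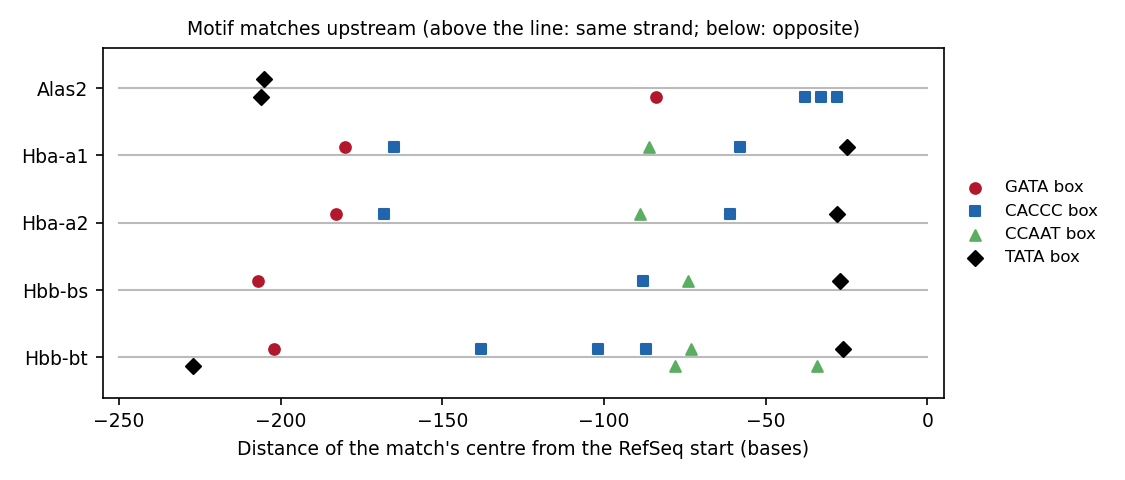
Matches of 4 motifs in the 250 bases before the RefSeq start of each red blood cell gene, by distance from that start in bases, with matches on the gene's own strand above the line and on the opposite strand below it. The 4 globin genes each have a TATA box within 30 bases of the start, and Alas2 has 3 CACCC boxes between 30 and 40 bases before it.

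The coding sequences are shown because they set what the values of single globin genes can say. Over 426 coding bases without the stop codon, Hba-a1 and Hba-a2 (GENCODE M21, mm10) differed at 1 base, and 87.8% of all windows of 50 coding bases were the same in both. Over 441 coding bases, Hbb-bs and Hbb-bt also differed at 1 base, and 93.6% of such windows were the same in both. The lines give 100 coding bases of the last exon around that base, which is in capitals. Hba-a1 is read from chr11:32284263-32284362 and Hba-a2 from chr11:32297080-32297179 (both plus strand), Hbb-bs from chr7:103826692-103826791 and Hbb-bt from chr7:103812683-103812782 (both minus strand).
Hba-a1: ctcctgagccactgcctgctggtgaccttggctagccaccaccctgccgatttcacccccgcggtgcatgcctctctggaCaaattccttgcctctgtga
Hba-a2: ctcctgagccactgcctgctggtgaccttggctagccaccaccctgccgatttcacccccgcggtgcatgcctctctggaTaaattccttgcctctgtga
Hbb-bs: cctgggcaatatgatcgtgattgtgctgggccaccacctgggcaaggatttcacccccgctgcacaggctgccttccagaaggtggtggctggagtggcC
Hbb-bt: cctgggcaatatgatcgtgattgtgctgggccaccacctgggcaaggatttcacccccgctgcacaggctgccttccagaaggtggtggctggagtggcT

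How the authors' counting assigned reads to such copies is not given in the sources used here, so the split of reads within a pair is uncertain and sums over a globin type are given beside the single genes.

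Alas2 was all but missing from the IP libraries. Alas2 (ENSMUSG00000025270.13, chrX:150547375-150570638, plus strand, mm10) had values of 0, 2.35 and 0 in IP 1 to 3, against 98.0, 107 and 101 in Input 1 to 3. The IP and Input libraries did not overlap, and the 3 Input libraries lay close together. From the value of 1 read in each library, this stood for about 1 read over the 3 IP libraries and 173 reads over the 3 Input libraries. The mean IP value was 0.769% of the mean Input value, with an exact 95% interval of 0.0188% to 4.21% that covers counting error only. The interval does not allow for the selection of Alas2 on these same values. The log2 fold change was -6.10 (SE 0.66) on the log2(value + 1) scale, which understates the change of a gene this close to 0. It was -4.23 with 5 added in place of 1. This was the lowest of the 14859 genes tested, a place that reflects how Alas2 was picked, and Alas2 passed the filter through its Input values alone.

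Globin RNA was also lower in IP, but by less than Alas2. Hba-a1 (ENSMUSG00000069919.7, chr11:32283511-32284465, plus strand), the alpha globin gene with the most reads, had values of 1055, 875 and 865 in IP 1 to 3, against 4103, 4498 and 4011 in Input 1 to 3. All 3 IP libraries lay below all 3 Input libraries. The mean IP value was 22.2% of the mean Input value, and the log2 fold change was -2.18 (SE 0.10), which placed Hba-a1 at number 838 from the lowest of the genes tested. Removing the trend of fold change with transcript length took it to -3.31, more than 1.5 times as far from 0, and scaling to library totals took it to -2.66.

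Hba-a2 (ENSMUSG00000069917.7, chr11:32296489-32297298, plus strand) had values of 105, 0 and 0 in IP 1 to 3, against 570, 206 and 0 in Input 1 to 3. It was listed at 0 in the IP libraries of pools 2 and 3 and in Input 3, so the groups overlapped at 0. Its share of alpha globin was 0% to 9.08% in the IP libraries and 0% to 12.2% in the Input libraries. The log2 fold change was -3.37 with an SE of 2.11.

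The beta globin genes split unevenly between symbols. Hbb-bs (ENSMUSG00000052305.6, chr7:103826534-103828096, minus strand) was listed at 0 in every library. Hbb-bt (ENSMUSG00000073940.3, chr7:103812524-103813996, minus strand) had values of 77.2, 72.6 and 0 in IP 1 to 3, against 0, 258 and 344 in Input 1 to 3. It was listed at 0 in IP 3 and in Input 1, so the groups overlapped. The log2 fold change was -1.32 with an SE of 1.98. Without IP 3 the log2 fold change was 0.76, without Input 3 it was 0.15 and without pool 3 it was 2.24, so no direction can be given for Hbb-bt alone.

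Most beta globin reads stood under 2 other symbols, Hbb-b1 and Hbb-b2, which name the beta globin genes of another mouse haplotype. In RefSeq's GRCm38.p6 they lie on an alternate scaffold, and they are not in GENCODE M21. Reads of the members may stand under these symbols, so their values are also given as a description, with no p-value. Hbb-b1 had values of 573, 471 and 421 in IP 1 to 3, against 2062, 2298 and 1614 in Input 1 to 3, with no overlap and a log2 fold change of -2.02 (SE 0.15). Hbb-b2 had values of 0, 0 and 58.2 in IP 1 to 3, against 378, 156 and 0 in Input 1 to 3. The groups overlapped, and its log2 fold change was -3.33 with an SE of 1.95. Without Input 3, where Hbb-b2 was listed at 0, it was -5.97, so its size depends on that library and nothing is read from it.

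Hbb-b2 and Hbb-bt took turns. Hbb-b2 was above 0 in IP 3 and Input 1, where Hbb-bt was at 0, and Hbb-bt was above 0 in IP 1, IP 2 and Input 3, where Hbb-b2 was at 0. Input 2 alone had both. Their sum was far steadier than either gene, at 77.2, 72.6 and 58.2 in IP 1 to 3, against 378, 415 and 344 in Input 1 to 3. As a share of beta globin it was 11.9% to 13.4% in the IP libraries and 15.3% to 17.6% in the Input libraries, which did not overlap.

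**Figure D2:**
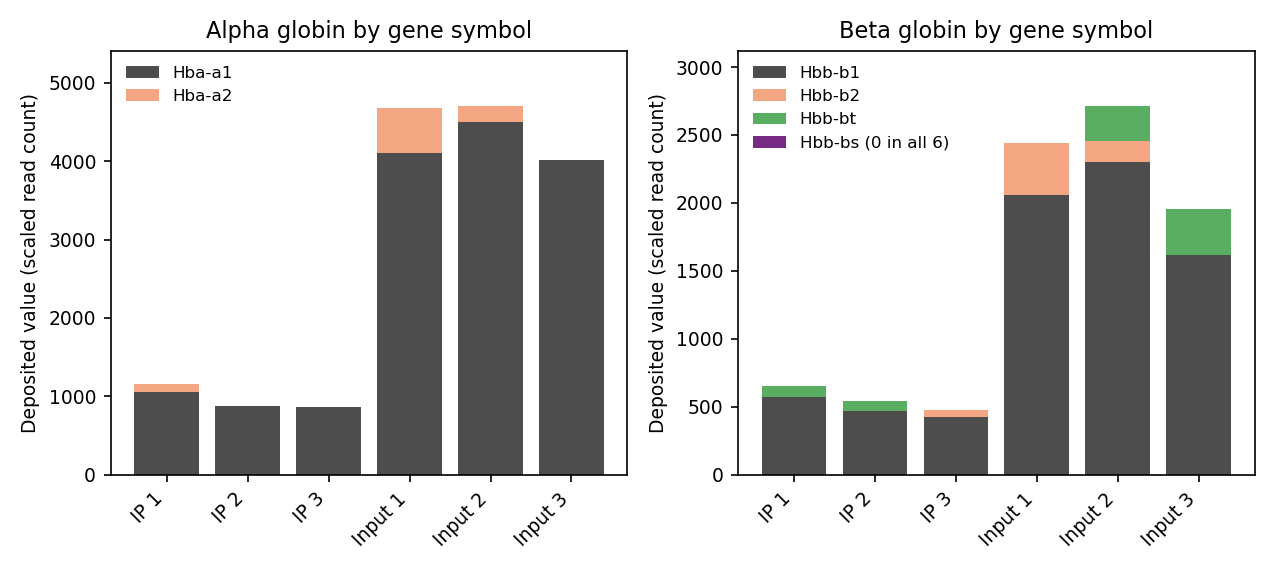
Deposited values (scaled read counts) of alpha globin (left) and beta globin (right) in each library, stacked by gene symbol, with 1 bar per library. The bar heights of alpha globin were 865 to 1160 in IP and 4011 to 4704 in Input, while the symbols that fill the upper part of each bar change between libraries of the same group.

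Summed over symbols, alpha and beta globin were both lower in IP. Alpha globin (Hba-a1 and Hba-a2) averaged 967 ± 168 in IP and 4463 ± 391 in Input (SD, n = 3 each). Its IP mean was 21.7% of its Input mean. Beta globin (Hbb-b1, Hbb-b2, Hbb-bs and Hbb-bt) averaged 558 ± 86.5 in IP and 2370 ± 382 in Input (SD, n = 3 each). Its IP mean was 23.5% of its Input mean. The 4 beta symbols were summed after their values were seen, since Hbb-bs and Hbb-bt alone are at 0 in Input 1 and IP 3.

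By pool, the log2 ratio of IP to Input was -2.01, -2.43 and -2.21 for alpha globin and -1.91, -2.32 and -2.03 for beta globin in pools 1 to 3. Libraries were matched to pools by replicate number. Pool 2 had the lowest ratio for both types, and the types share their libraries. All adult globin RNA made up 0.0057% to 0.00725% of an IP library's total and 0.0355% to 0.0433% of an Input library's total.

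The balance of alpha over beta globin does not depend on the scaling between libraries. The ratio of their values was 1.78, 1.61 and 1.81 in IP 1 to 3, against 1.92, 1.73 and 2.05 in Input 1 to 3. The groups overlapped, and the log2 ratio was -0.13 as IP minus Input. An exact permutation test of 3 against 3 libraries cannot go below p = 0.1, so it could not make a call and the ratio is given as a description. IP lay below Input in each of the 3 pools, by -0.10, -0.11 and -0.18 on the log2 scale.

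Set side by side, the mean IP value was 0.769% of the mean Input value for Alas2, 21.7% for alpha globin and 23.5% for beta globin. This description includes the values on which Alas2 was selected. The percentages depend on the scaling between libraries. With scaling to library totals, the log2 fold change was -6.40 for Alas2, -2.70 for alpha globin and -2.57 for beta globin. Per kilobase of transcript in the Input libraries, Hba-a1 had a mean level of 6014, Alas2 of 50.1 and Alas1 of 345. In the IP libraries, the means per kilobase were 1333 for Hba-a1, 0.385 for Alas2 and 361 for Alas1. Fewer red blood cells in the captured material and less RNA per cell cannot be told apart in such bulk libraries.

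Among the 4 red blood cell genes tested, 2 were lower in IP by the rule used for all genes, an adjusted p under 0.05 (Alas2 and Hba-a1), and the same 2 had every IP library below every Input library. Over all 14859 genes tested, 32.2% were called lower, 31.4% were called higher and 35.4% had every IP library below every Input library. Since Alas2 was selected on this contrast, the count is no test and nothing is read from it. The median log2 fold change of all genes tested was -0.06, and -0.54 with scaling to library totals.

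Of 3 genes close to Alas2 on the X chromosome, none was called lower in IP. Apex2, which encodes a DNA repair nuclease, overlaps all of Alas2 on the opposite strand (chrX:150519519-150589868). The library kit does not mark strand, so reads of Alas2 and Apex2 cannot be told apart where their transcripts overlap. Apex2 had values of 160, 139 and 200 in IP 1 to 3, against 142, 126 and 126 in Input 1 to 3. The groups overlapped and the log2 fold change of 0.33 (SE 0.20) did not pass (limma, adjusted p = 0.17), though it was 0.72 and passed with the length trend removed (adjusted p = 0.010) and -0.15 with scaling to library totals (adjusted p = 0.52). Further along, Pfkfb1, an enzyme gene of glycolysis control, had a log2 fold change of 0.86 (SE 0.43) and did not pass (adjusted p = 0.10). Tro, which encodes the adhesion protein trophinin, was higher in IP by 0.58 (SE 0.12, adjusted p = 0.0013), but by 0.10 with scaling to library totals, where it did not pass (adjusted p = 0.49).

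**Figure D3:**
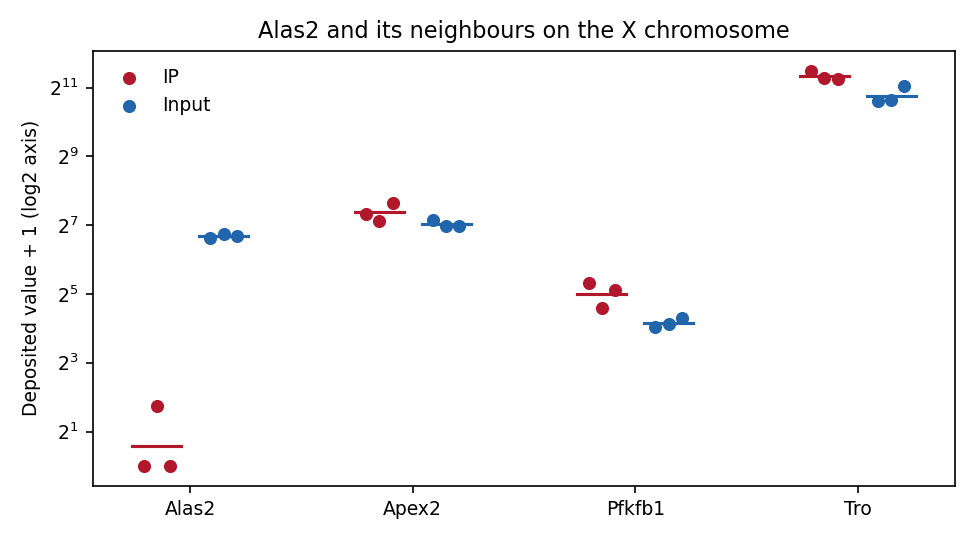
Deposited value plus 1 (log2 axis) of Alas2, Apex2, Pfkfb1 and Tro, with 1 point per library, IP libraries left of Input libraries for each gene, and lines at the mean of the log2 values. The IP libraries of Alas2 lie at 0, 2.35 and 0 before 1 is added, apart from all 3 of its Input libraries, while for Apex2 the groups overlap.

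The other enzymes of haem synthesis, which all cells use, stayed well expressed in IP. Of the 8 tested, 4 were higher, 1 was lower and 3 did not pass, with a median log2 fold change of 0.40 against -0.06 over all genes tested. This count and those of the lists below stand beside 31.4% higher and 32.2% lower over all genes tested. Alas1, which does the same step as Alas2 in other cells, had values of 1237, 1170 and 1277 in IP 1 to 3, against 1169, 1093 and 1261 in Input 1 to 3. The groups overlapped, and its log2 fold change of 0.07 (SE 0.10) did not pass (limma, adjusted p = 0.58). Its sign depended on the setting, at -0.42 with scaling to library totals (adjusted p = 0.0027) and 0.24 with the length trend removed (adjusted p = 0.035).

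Enzymes of the next steps were higher in IP. Alad, which joins pairs of 5-aminolevulinate, rose by 1.23 (SE 0.10, adjusted p = 4.1e-07) and Uros, which closes the porphyrin ring, by 0.97 (SE 0.11), and both passed under each of the scalings and with the length trend removed. Their size shrank there, to 0.75 for Alad and 0.48 for Uros with scaling to library totals and to 0.54 for Alad and 0.58 for Uros with the length trend removed. Urod, which removes carboxyl groups from the ring, rose by 0.45 (SE 0.09), but stood at -0.04 with scaling to library totals and at -0.10 with the length trend removed.

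The last enzymes of the pathway, which sit in mitochondria, were not called higher. Cpox (-0.25, SE 0.11, adjusted p = 0.056) and Ppox (0.35, SE 0.18, adjusted p = 0.10) did not pass. Cpox passed as lower with scaling to library totals (-0.73, adjusted p = 7.4e-05), with scaling to the upper quartile (-0.48, adjusted p = 0.0016) and without IP 3 (-0.32, adjusted p = 0.038). Ppox passed as higher without IP 2 (0.57, adjusted p = 0.0047) and without pool 2 (0.54, adjusted p = 0.017), and stood at -0.13 with scaling to library totals and at -0.01 with the length trend removed. Fech, which inserts iron to make haem, was lower at 1906, 2184 and 2248 in IP 1 to 3, against 2623, 2633 and 2753 in Input 1 to 3, with no overlap and a log2 fold change of -0.34 (SE 0.09, adjusted p = 0.0061). With the length trend removed Fech stood at 0.12 and did not pass.

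**Figure D4:**
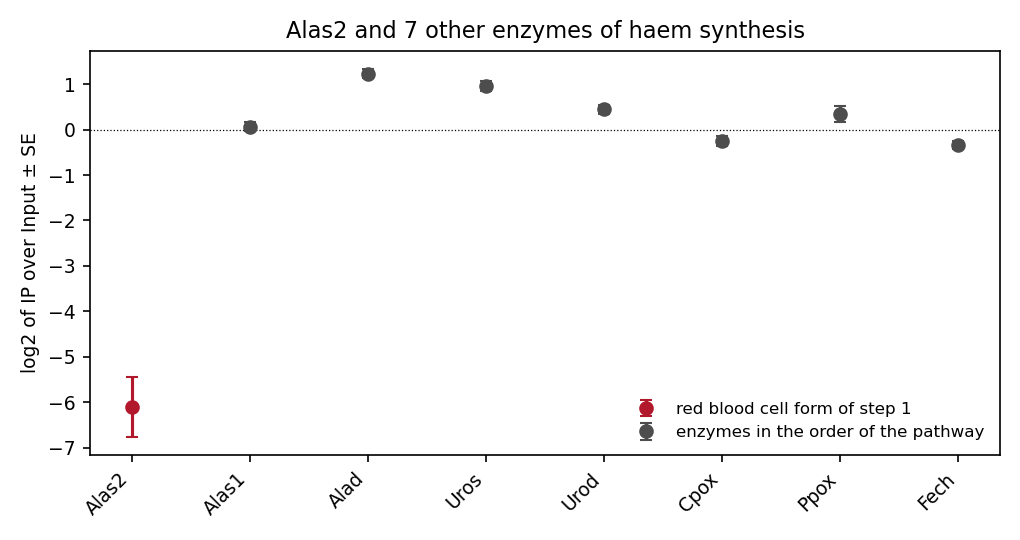
Log2 fold change of IP over Input for Alas2 and 7 other enzymes of haem synthesis, in the order of the pathway from left to right, with bars of 1 SE from the fit over all genes. Alas2 stands at -6.10, and the other enzymes lie between -0.34 and 1.23.

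Genes that handle iron and porphyrins in mitochondria were mostly higher in IP, at 8 higher, 2 lower and 3 that did not pass of 13 tested (median log2 fold change 0.76). Fam210b, which takes part in mitochondrial iron import, rose by 1.92 (SE 0.11) and Iscu, the scaffold for iron-sulphur clusters, by 1.80 (SE 0.09). Isca1, another iron-sulphur assembly gene, rose by 0.76 (SE 0.09). Slc25a37, which encodes mitoferrin-1, the iron importer most used by red cell precursors, went the other way, with values of 59.3, 41.3 and 33.7 in IP 1 to 3, against 103, 139 and 148 in Input 1 to 3 (log2 fold change -1.53, SE 0.29, adjusted p = 0.00051). Its IP libraries lay below all of its Input libraries.

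Of 9 genes of iron uptake and storage tested, 7 were lower, 0 were higher and 2 did not pass (median -1.01), where 32.2% of all genes tested were lower. The gene for the iron exporter ferroportin, Slc40a1, fell by 3.15 on the log2 scale (SE 0.41), and Trf, which encodes transferrin, fell by 2.43 (SE 0.22). Fth1, the ferritin heavy chain, fell by 1.01 (SE 0.09) and Ftl1, the ferritin light chain, by 0.74 (SE 0.10). Genes of haem breakdown and scavenging split, with 2 higher, 2 lower and 4 that did not pass of 8 tested (median 0.00 against -0.06 over all genes). Hmox2, the haem oxygenase that brain cells make steadily, rose by 0.72, and Lrp1, a receptor that takes up haem bound to haemopexin, fell by 0.80. Slc48a1, a haem transporter, did not pass (-0.10, SE 0.10, adjusted p = 0.38).

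Beyond Alas2 and globin, genes that define red blood cells were at or near 0 in both groups. Of 7 defining markers, among them Slc4a1 (band 3), Epb42, Ank1 (ankyrin), Klf1 and Gata1, 2 reached a value of 10 in any library (Ank1 and Klf1), and 2 were at 0 in all 6, Gata1 being one of them. The 7 together summed to 60.2, 67.7 and 91.4 in IP 1 to 3, against 53.0, 45.3 and 74.97 in Input 1 to 3, most of it Ank1. The sums overlapped between groups. Ank1 had a log2 fold change of 0.40 (SE 0.31) and did not pass (limma, adjusted p = 0.28), and it is also made by brain cells.

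A wider list of 29 red cell membrane and enzyme genes had 28 in the files, of which 13 stayed under 10 in every library and 13 were tested. Among those tested, 2 were higher, 6 were lower and 5 did not pass (median -0.71). Prdx2, a peroxide-clearing enzyme, rose by 1.18 (SE 0.09) and Bpgm, which makes 2,3-bisphosphoglycerate, by 0.79 (SE 0.10). The genes with the largest falls were Slc14a1, a urea transporter, at -3.70 (SE 0.96), and Epb41, protein 4.1 of the membrane skeleton, at -2.28 (SE 0.34). Dmtn, a skeleton protein that brain cells make too, did not pass (0.14, SE 0.08). Brain cells make many of these genes too, so their values are not those of red blood cells alone.

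Regulators of red cell precursors were measured in part. Of 13 such genes 8 were tested, with 2 higher, 3 lower and 3 that did not pass (median -0.28), and Gata1 and Gfi1b were at 0 in all libraries. Those that rose were Lmo2 (1.03, SE 0.12), a bridging protein of the GATA1 complex, and Bcl11a (0.93, SE 0.13), a repressor of embryonic globin, and both are also made by neurons. Ldb1 did not pass (0.20, SE 0.09) and Stat5b fell by 0.96 (SE 0.17). Among 10 mRNAs that reticulocytes keep and brain cells also make, 5 were higher, 4 lower and 1 did not pass (median 0.16), with Ubb (ubiquitin) at 1.32 and the glycine transporter Slc6a9 at -2.03.

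Globin genes of other stages and tissues were not called lower in IP, and most were at or near 0 in both groups, where no fall could be seen. The embryonic genes Hbb-y, Hbb-bh1 and Hbb-bh2 were listed at 0 in every library, and the embryonic alpha gene Hba-x had values of 2.26, 0 and 2.24 in IP 1 to 3, against 0 in all 3 Input libraries. Hbq1b, a theta globin gene, had 5.60 in IP 3 and 5.13 in Input 3, and 0 elsewhere. Hbq1a, also of the theta type, had values of 40.8, 25.3 and 25.7 in IP 1 to 3, against 17.4, 20.2 and 15.4 in Input 1 to 3. The groups did not overlap, yet its log2 fold change of 0.73 (SE 0.43) did not pass (limma, adjusted p = 0.16) and it turned to -0.49 with the length trend removed. Ngb, the neuroglobin of nerve cells, had values of 7966, 6044 and 6852 in IP 1 to 3, against 1453, 1367 and 1519 in Input 1 to 3, and rose by 2.26 (SE 0.11, adjusted p = 1.8e-08). Cygb, cytoglobin, rose by 0.61 (SE 0.09, adjusted p = 9.8e-05), which fell to 0.13 with scaling to library totals and then did not pass (adjusted p = 0.17).

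Other cells that come with blood were barely measured. Of 11 platelet genes 3 were tested and 7 stayed under 10 in every library. Itga2b (integrin alpha IIb) was higher at 0.82, and the platelet receptor gene Gp1bb did not pass. Of 12 neutrophil genes 1 was tested and did not pass, and 9 stayed under 10. None of 11 lymphocyte and monocyte genes could be tested. The summed levels ran from 185 to 240 in IP and from 204 to 228 in Input for platelet genes, from 24.5 to 34.6 in IP and from 20.3 to 58.2 in Input for neutrophil genes, and from 4.62 to 18.1 in IP and from 17.1 to 31.3 in Input for lymphocyte and monocyte genes.

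Markers of microglia were lower in IP, and those of the vessel wall were lower in part. All 10 microglia and macrophage genes tested were lower in IP, with a median of -2.60, and Cx3cr1, the fractalkine receptor, fell by 3.72 on the log2 scale. Their summed level ran from 804 to 1449 in IP and from 4283 to 6411 in Input. Of 11 endothelial genes tested 7 were lower, 1 was higher and 3 did not pass (median -1.87), from the drug transporter Slco1a4 at -4.88 to Bsg (basigin), which is widely made, at 1.11. The summed endothelial level was higher in IP, from 16130 to 17344 against 8365 to 9406 in Input, and most of it was Bsg. Among 9 mural cell genes 5 were lower, 0 higher and 4 did not pass (median -1.39), with a summed level from 493 to 971 in IP and from 973 to 1496 in Input. Among 7 choroid plexus genes 1 was lower and 6 did not pass (median -1.33), with a summed level from 1859 to 4690 in IP and from 3466 to 23796 in Input. Slco1a4, the endothelial gene Ly6c1 and the mural gene Des stayed under 10 in every IP library. They passed the filter through their Input values alone, which favours calls of lower in these lists. Whether the cell types of these lists have a part in the values of the red blood cell genes was not tested.

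**Figure D5:**
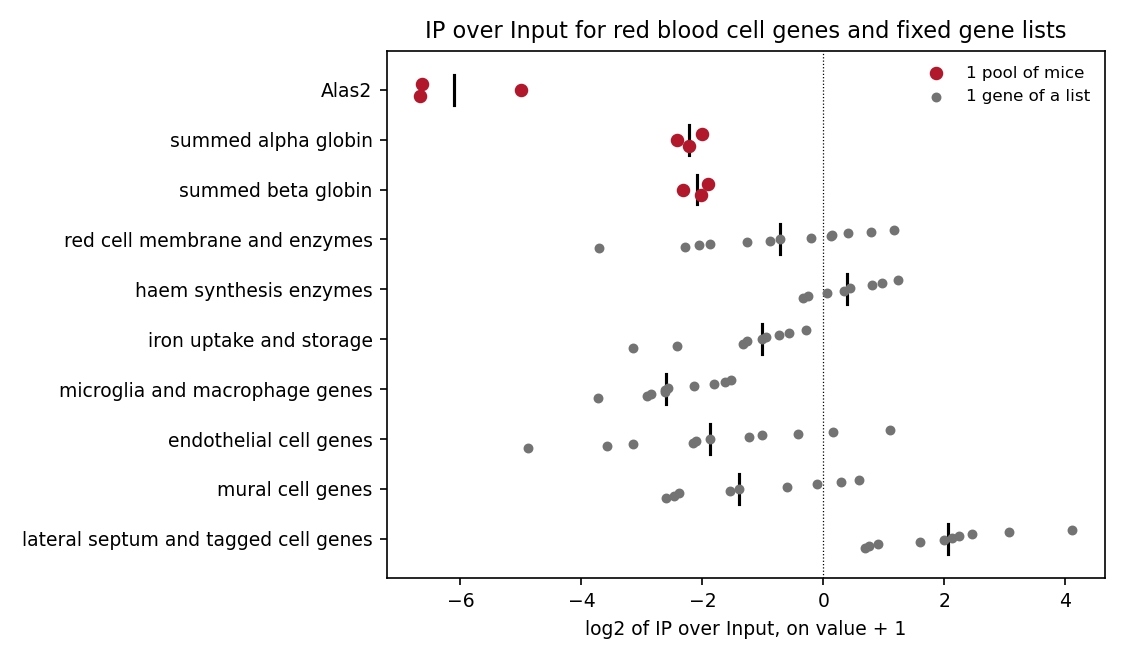
Log2 ratio of IP to Input on the value + 1 scale for Alas2, summed alpha globin and summed beta globin (red, 1 point per pool of mice, with a line at the mean of 3 pools) and for 7 gene lists (grey, 1 point per tested gene, with a line at the median). Alas2 lies between -6.67 and -5.01, the globin sums lie between -2.43 and -1.91, and the list medians lie between -2.60 for microglia and macrophage genes and 2.06 for lateral septum and tagged cell genes.

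The genes most like each red blood cell measure were found by the root mean square difference of log2(value + 1) profiles over the 6 libraries, each centred on its mean. Nearest to Alas2 were Slco1a4 (0.65), Phka1 (0.68), Fyb (0.73), Vav1 (0.77) and Sox7 (0.80). The search used the libraries on which Alas2 was picked, so it favours genes that are also low in IP. Slco1a4 had values of 0, 2.29 and 0 in IP 1 to 3, against 32.3, 43.4 and 55.6 in Input 1 to 3. In IP 2, 1 read was worth about 2.30, so the IP values above 0 of Slco1a4 and Alas2 each stood for about 1 read. Nothing is read from that shared pattern. Fyb and Sox7 were at 0 in all 3 IP libraries.

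Nearest to summed alpha globin were Cldn10 (0.067), Sdc4 (0.079), Mkrn3 (0.095), Ttpa (0.10) and Dio2 (0.12), and among the nearest to summed beta globin were Sdc4 (0.057), Mkrn3 (0.12), Cldn10 (0.13) and Ptprz1 (0.14). Cldn10, a claudin, had values of 149, 112 and 108 in IP 1 to 3, against 568, 650 and 553 in Input 1 to 3. Hbb-b1 lay 0.13 from summed alpha globin, while Alas2 lay 2.05 from it.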

How the data were processed

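RNA of 3 IP and 3 Input libraries was analysed. The authors deposited a signal value for every gene and library, made by dividing read counts by size factors of DESeq2, on a linear scale. STAR, DESeq2 and mm10 appear in the submitters' processing notes without versions. The published methods instead give BaseSpace apps, TopHat with Cufflinks, and UCSC's mm10 annotation. Which of these made the deposited values, how reads of similar copies were shared out and any strand setting were not given in the sources used here. There were 24972 entries in each file. A date stood in place of a symbol in 26 of them (0.188% to 0.32% of a library's total), and these were left out.

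The values are not whole numbers and the worth of 1 read varied between genes, so log2(value + 1) was tested in limma 3.58.1 (R 4.3.3) with a variance trend over the mean level. Benjamini-Hochberg adjustment covered the 14859 genes that reached 10 or more in 3 or more libraries. Standard errors are limma's. A gene was called at an adjusted p under 0.05. The plan had summed Hbb-bs and Hbb-bt, and the sum over 4 beta symbols replaced it after the values were seen. P-values rest on the spread between libraries of a group, with each gene's variance drawn towards the trend over all genes. They do not use the pairing of IP and Input within a pool. Depth limits genes near 0 most.

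The members and lists were chosen with earlier results of these data known. The text names all members, other globin genes, haem enzymes and red cell markers, the 5 nearest profiles, and from each list the 2 genes of highest level, the 2 with the largest called change and those called against the majority. Some genes under this rule are not reported here. Other genes of short lists were named after their values were seen.

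IP and Input of 1 replicate number were taken to come from the same pool of mice, which the sample titles do not state. Across genes, departures of IP and Input libraries from their group means were correlated. The correlation was 0.11, 0.095 and 0.099 for libraries of the same number and -0.083 to -0.013 for those of different numbers. The main fit had no block. Alternatives were the block, 3 filters, 2 pseudocounts, 3 scalings, removal of the length trend (lengths were found for 98.1% of genes), and leaving out each library and pool. The code was tested on simulated data. Genes and transcripts come from GENCODE M21, and promoters from RefSeq (GRCm38.p6). All 5 members matched both. Figures were drawn with matplotlib 3.10.9.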

Additional observations from a re-analysis of the deposited data

How the results depend on the processing

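Alas2, summed alpha globin and summed beta globin stayed lower in IP under each alternative run. The log2 fold change of Alas2 was -4.23 with a pseudocount of 5, and -6.69 to -5.81 when an IP library was left out. Without an Input library or a pool, Alas2 no longer reached the filter and had no value. Scaling to library totals gave -2.70 for alpha and -2.57 for beta globin, and scaling to the upper quartile gave -2.44 and -2.31. Beta globin was -1.32 from Hbb-bs and Hbb-bt only, an alternative added after seeing the data. Leaving out a library or pool gave -2.35 to -2.11 for alpha globin, -2.22 to -1.97 for beta globin and -5.12 to 2.24 for Hbb-bt, which reversed (0.76 without IP 3, 0.15 without Input 3, 2.24 without pool 3). Over all genes, 4671 were higher and 4787 lower, but 2577 and 7886 with scaling to library totals. Of the haem enzymes, 3 were lower with totals, 2 with the upper quartile, 0 with the length trend removed, and 1 to 2 when a library or pool was left out (2 without IP 3, where Cpox joined Fech). In the red cell list, 5 genes were higher with the length trend removed. Counts of lower genes were 1 to 4 in the haem breakdown list and 1 to 4 in the mitochondrial list over the alternatives, with 1 without IP 2, Input 1, Input 2 or Input 3 in the haem breakdown list and without IP 3 or Input 1 in the mitochondrial list. With the replicate block, 4728 genes were higher and 4929 lower, the alpha over beta difference stayed at -0.13, and no count named here changed by over 1.5 times. Leaving out a library or pool gave -0.19 to -0.07 for it, and -0.15 came from Hba-a1 over Hbb-b1 only, also added later. Ratios of Hba-a1 to Hbb-bs and of Hba-a2 to Hbb-bt gave no value because of zeros. Length and filters were not run on the sums. The cause of these shifts was not tested. At 1 read over 3 IP libraries, depth limits Alas2 most.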
